A study of Mus musculus with 12 samples.

Results

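The genes examined were the 7 mouse globin genes Hba-x, Hbb-bh1, Hbb-y, Hba-a1, Hba-a2, Hbb-b1 and Hbb-b2, taken by symbol from a table of 20368 genes measured by RNA sequencing of embryonic hearts, and all 7 were present. Reads were found for 17827 of the genes in the table. The genes were chosen by symbol, but they were proposed with their levels and the results of these comparisons in view, so the counts and adjusted p-values below describe these libraries and are not independent support for any pattern. Hearts were taken at embryonic day 11.5 (E11.5) and E12.5 from Mesp1Cre;Hira+/fl embryos, called controls, and from Mesp1Cre;Hira-/fl embryos, called mutants, all labelled as CD1, an outbred strain. There were 3 libraries in each of the 4 groups. Every embryo carried Mesp1Cre, a Cre recombinase driven by the Mesp1 locus in early cardiogenic mesoderm, and a floxed Hira allele, so controls keep a single allele of Hira in recombined cells and are not wild type. Hira encodes a histone chaperone that deposits histone H3.3.

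Hemoglobin is a tetramer of alpha-type and beta-type globin chains around heme. In the mouse, primitive red cells that arise in the yolk sac make the embryonic alpha-type chain from Hba-x (zeta) and the embryonic beta-type chains from Hbb-bh1 and Hbb-y (epsilon-y), switching from Hbb-bh1 to Hbb-y as they mature, and they also make some adult alpha chain. Definitive red cells that arise in the fetal liver make the adult-type chains from Hba-a1, Hba-a2, Hbb-b1 and Hbb-b2, and a whole heart is sampled with the blood in its chambers and vessels.

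The alpha-type genes lie on chromosome 11 of GRCm38, on the + strand, with Hba-x at chr11:32276400-32278116, Hba-a1 at chr11:32283511-32284465 and Hba-a2 at chr11:32296489-32297298. The beta-type genes lie on chromosome 7, on the - strand, with Hbb-y at chr7:103851749-103853216, Hbb-bh1 at chr7:103841637-103843164, Hbb-b1 at chr7:103826534-103827928 and Hbb-b2 at chr7:103812524-103813996 in the GENCODE models. Each gene has 3 exons in these models, and the coding length with its stop codon is 429 bases for the alpha-type and 444 bases for the beta-type genes. RefSeq names the genes called Hbb-b1 and Hbb-b2 here Hbb-bs and Hbb-bt.

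How far reads can be told apart between members depends on their sequences, so the first 60 coding bases are shown, lower case where a base equals the adult-type gene at the same position and in capitals where it differs.
Hba-a1: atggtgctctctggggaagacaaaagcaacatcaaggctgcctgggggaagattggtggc
Hba-x: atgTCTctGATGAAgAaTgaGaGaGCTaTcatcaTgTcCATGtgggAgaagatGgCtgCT
Hbb-b1: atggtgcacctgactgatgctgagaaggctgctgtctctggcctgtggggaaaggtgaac
Hbb-bh1: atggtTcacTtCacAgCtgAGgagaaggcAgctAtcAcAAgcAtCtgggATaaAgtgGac
Hbb-y: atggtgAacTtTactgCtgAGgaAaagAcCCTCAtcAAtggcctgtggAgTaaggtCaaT
In this stretch Hba-x differed from Hba-a1 at 28 bases, and Hbb-bh1 and Hbb-y differed from Hbb-b1 at 18 and 19 bases. Over the whole coding sequence, Hba-x and Hba-a1 were 63.0% identical with no shared run longer than 18 bases. Hbb-bh1 and Hbb-y were 76.4% identical to each other, and 74.1% and 74.3% identical to Hbb-b1.

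The adult-type pairs are near-identical copies, and the single coding difference of each pair is shown in capitals within a window of 31 bases.
Hba-a1: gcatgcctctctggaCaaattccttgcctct
Hba-a2: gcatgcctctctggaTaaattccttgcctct
Hbb-b1: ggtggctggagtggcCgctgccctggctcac
Hbb-b2: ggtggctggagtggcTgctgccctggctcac
Counted from the A of the start codon, the difference is C381T between Hba-a1 and Hba-a2 and C417T between Hbb-b1 and Hbb-b2, at the last base of codons 127 and 139. Both pairs were 99.8% identical, with shared runs of 380 and 416 bases. Counts of the 2 copies of a pair are therefore uncertain one against the other, and each adult-type result is also given for the pair counted as 1 gene.

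Start regions are shown to set an alpha-type beside 2 beta-type genes, as the 120 bases before the RefSeq start on GRCm38.p6. Hbb-y and Hbb-b1 were called lower in E12.5 mutants below, and Hba-a2, which was not, stands for the alpha pair by its near-identical promoter. Capitals mark the letters GATAA, the letters CACCC, the letters CCAAT and the letters TATAA, searched on both strands.
Hba-a2 (chr11:32296372-32296491, + strand): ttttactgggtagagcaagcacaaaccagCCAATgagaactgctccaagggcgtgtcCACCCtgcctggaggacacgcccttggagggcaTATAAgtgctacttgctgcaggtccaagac
Hbb-y (chr7:103853208-103853327, - strand): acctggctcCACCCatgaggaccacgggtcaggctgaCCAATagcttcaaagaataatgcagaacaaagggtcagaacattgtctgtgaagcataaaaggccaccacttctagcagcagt
Hbb-b1 (chr7:103827929-103828048, - strand): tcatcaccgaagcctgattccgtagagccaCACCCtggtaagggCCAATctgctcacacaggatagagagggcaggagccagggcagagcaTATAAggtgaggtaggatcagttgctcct
The CACCC letters were found in each of the 6 members with an entry in the promoter table, CCAAT in all of them but Hba-x, TATAA in all but Hbb-y, and GATAA in Hba-x alone. Among all 32851 promoters of the table, 31.7% held CACCC in a window of the same length, 21.3% CCAAT, 11.8% TATAA and 10.5% GATAA. Hba-a1 and Hba-a2 shared a run of 297 bases within their promoter windows of 300 bases, and Hbb-b1 and Hbb-b2 shared no run longer than 14 bases. Exons of the GENCODE models cover all 120 bases before the RefSeq start of Hba-x and of Hba-a1, and 73 of those of Hbb-b2. In the windows shown they cover 3 bases for Hba-a2, 9 for Hbb-y and 0 for Hbb-b1. A match describes the letters and does not show a bound site.

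Total counts ran from 11994148 to 17483982 per library, with a median of 15325848, and member counts from 37 for Hba-a2 to 54100 for Hbb-y. The 8 cardiomyocyte markers summed to between 19631 and 27346 TMM-scaled counts per 1000000 (CPM) in the 12 libraries, and none of them passed the test in any comparison. Of the 7 erythroid markers, 4 were in the counts, Slc4a1, Klf1 and Epor among them, and Alas2, Gata1 and Ahsp were not analysed here. Hira was at 57.0 to 86.5 CPM with overlapping genotypes at both stages, but the counts cover the whole gene and the deletion a part of it, so they do not check the genotype labels. By Y-linked reads, all 3 E11.5 controls were male and 1 heart was male in each other group. Summed liver markers (Alb, Afp, Apoa1, Ttr and Apoa2) reached 24.8 CPM in E11.5 control replicate 1, 55.9 CPM in E11.5 mutant replicate 1 and 49.7 CPM in E12.5 mutant replicate 1, against 0.669 to 13.7 CPM in the other 9 libraries. In E12.5 control replicate 3, each of the 7 globin genes was higher than in the other 2 libraries of its group.

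Per length of gene, in CPM divided by gene length in kilobases (RPKM, mean ± SD, n = 3), Hbb-y and then Hba-x led in every group. In E11.5 controls, Hbb-y was at 3652 ± 500, Hba-x at 2240 ± 352 and Hbb-bh1 at 1560 ± 44.8 RPKM, and their libraries did not overlap. Hba-a1 followed at 349 ± 61.0 RPKM, and then Hba-a2 at 107 ± 25.0, Hbb-b1 at 104 ± 34.3 and Hbb-b2 at 88.9 ± 14.1 RPKM, which overlapped one another. The order of the first 4 genes was the same in E12.5 controls, with Hbb-y at 4447 ± 823, Hba-x at 1760 ± 641, Hbb-bh1 at 725 ± 372 and Hba-a1 at 554 ± 64.8 RPKM, where the last 2 overlapped. In E12.5 mutants, Hba-a1 came after Hbb-y and Hba-x at 331 ± 63.9 RPKM, above Hbb-bh1 at 235 ± 50.7 RPKM without overlap, while Hbb-bh1 overlapped Hbb-b1 at 225 ± 77.9 RPKM. The minor globin genes of the same clusters had few reads, with 0 to 9 counts per library for Hbq1a and for Hbb-bh2 and 5 to 50 counts for Hbq1b.

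**Figure D1:**
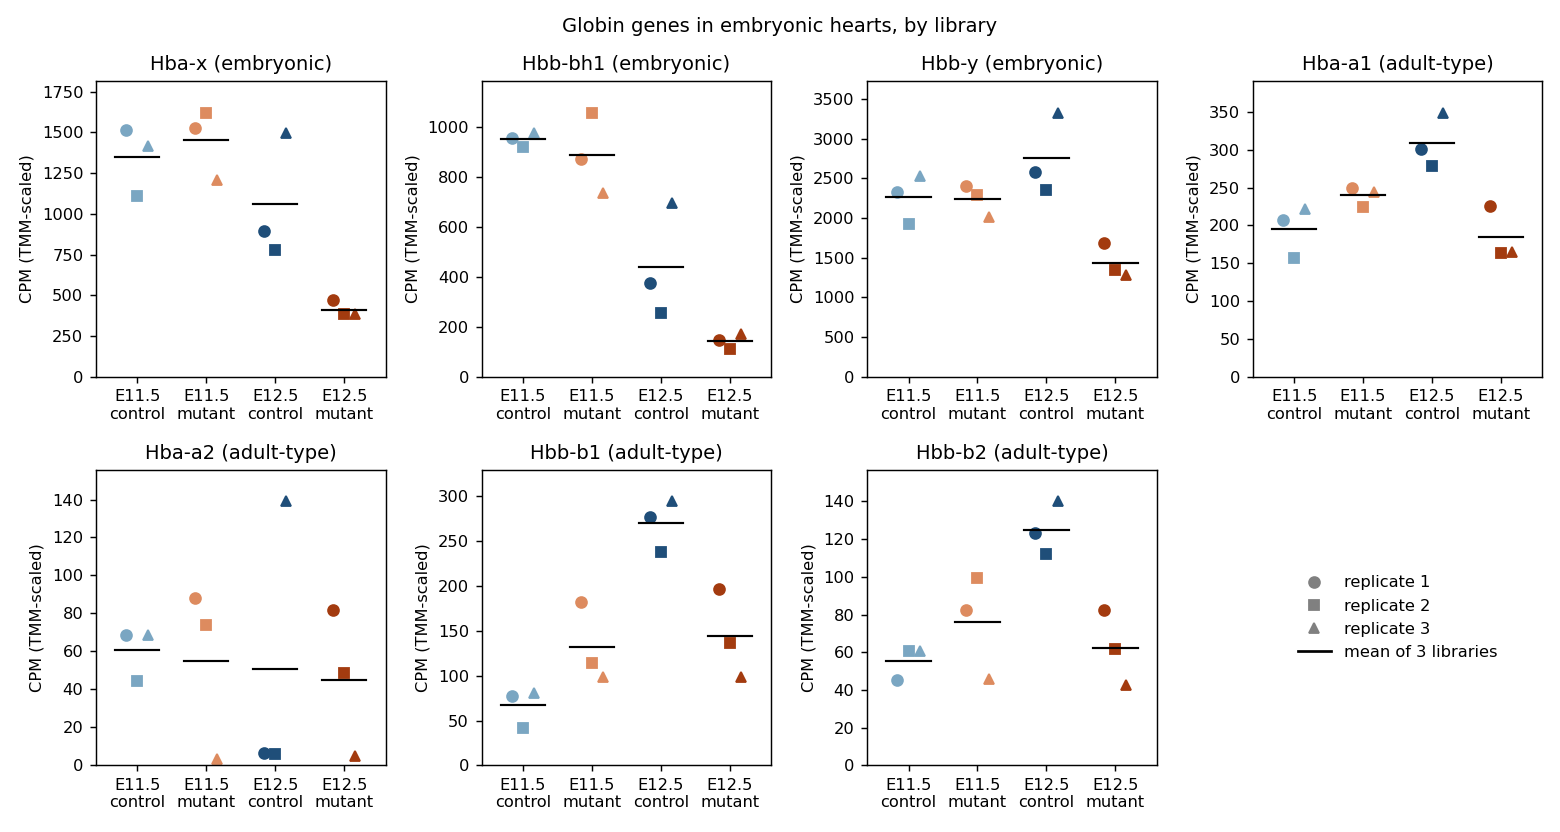
Level of each globin gene by library in CPM (vertical axis, from 0, own scale per gene) for the 4 groups, with 1 symbol per library and a line at the mean of 3 libraries. At E12.5, the mutant libraries lie below all control libraries for every gene except Hba-a2, which splits into libraries near 5 CPM and libraries above 40 CPM.

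The first comparison asked whether globin RNA differed between mutant and control hearts at E11.5. None of the 7 genes passed the threshold of an adjusted p of at most 0.05 with a fold change of at least 1.5, where 0.115% of the 12197 genes tested did so, 14 genes in all. At an unadjusted p under 0.05, 1 member and 1252 genes were found, and DESeq2 called 1 member (Hbb-b1) and 248 genes. Fewer red cells in a heart and less globin RNA per red cell cannot be told apart in RNA of whole tissue, here and in what follows.

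Among the embryonic genes, Hba-x (zeta) was at 1513, 1109 and 1417 CPM in the controls and at 1529, 1621 and 1210 CPM in the mutants. Hbb-bh1 was at 956, 922 and 977 CPM in the controls and at 874, 1059 and 735 CPM in the mutants. Hbb-y was at 2327, 1923 and 2531 CPM in the controls and at 2405, 2287 and 2017 CPM in the mutants. The genotypes overlapped for all 3 embryonic genes, and the log2 ratios of mutant to control (log2 fold changes) were 0.11 (SE 0.17), -0.10 (SE 0.15) and -0.02 (SE 0.15), with adjusted p from 0.914 to 0.988 by edgeR.

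Among the adult-type genes, Hbb-b1, a major adult beta chain gene, was at 77.6, 41.5 and 81.1 CPM in the controls and at 182, 114 and 98.9 CPM in the mutants. Hba-a1 was at 207, 157 and 222 CPM in the controls and at 250, 225 and 244 CPM in the mutants. For these 2 genes every mutant library lay above every control library, which was so for 7.73% of all genes tested. The log2 ratio was 0.98 (SE 0.29, adjusted p = 0.254 by edgeR) for Hbb-b1 and 0.29 (SE 0.15, adjusted p = 0.572) for Hba-a1.

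Hbb-b2 was at 45.4, 60.9 and 60.6 CPM in the controls and at 82.6, 99.2 and 45.7 CPM in the mutants, and Hba-a2 at 68.7, 44.3 and 68.6 CPM against 88.3, 73.8 and 3.18 CPM. Both genes overlapped between genotypes. As 1 gene, the 2 adult beta copies gave a log2 ratio of 0.76 (SE 0.22, adjusted p = 0.239 by edgeR), and the 2 adult alpha copies 0.20 (SE 0.18, adjusted p = 0.810). The highest mutant library for Hbb-b1, replicate 1, was also the library with 55.9 CPM of liver markers. Without it, the log2 ratio of Hbb-b1 was 0.68 (SE 0.27, adjusted p = 0.488 by edgeR, with a range of 0.0368 to 0.606 over the alternatives). Without both E11.5 libraries over 20 CPM of liver markers, it was 0.81 (SE 0.30, adjusted p = 0.566). All 3 controls and 1 of the 3 mutants were male, so a fit with sex as a term sets 1 male mutant against the controls. In that fit Hbb-b1 was at 0.57 (SE 0.35, adjusted p = 0.397 by edgeR) and Hbb-b2 turned from 0.45 to -0.28 (SE 0.21, adjusted p = 0.480, with a range of 0.111 to 1.0 over its alternatives). Hba-a2 was called lower there, at -4.24 (SE 0.37, adjusted p = 0.00946, with a range of 0.00946 to 1.0), and Hba-x turned from 0.11 to -0.15 (SE 0.19, adjusted p = 0.687, with a range of 0.442 to 1.0).

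The second comparison asked the same at E12.5, and there 6 of the 7 genes were lower in mutants and passed the threshold, while 1.39% of the 12256 genes tested were called lower. In the same 6 genes every mutant library lay below every control library, which was so for 14.2% of genes. The embryonic genes ranged from 1.90-fold to 3.06-fold lower and the called adult-type genes from 1.66-fold to 1.99-fold lower.

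Hbb-bh1 (an embryonic beta-type chain) was at 375, 256 and 695 CPM in the controls and at 147, 110 and 172 CPM in the mutants. Hba-x was at 897, 779 and 1498 CPM in the controls and at 468, 386 and 382 CPM in the mutants. Hbb-y, the most abundant globin RNA in these hearts, was at 2583, 2350 and 3325 CPM in the controls and at 1679, 1343 and 1281 CPM in the mutants. The highest mutant library was below the lowest control library for each gene, and control replicate 3 stood above the other 2 controls. The log2 ratio was -1.61 (SE 0.29, adjusted p = 0.0125 by edgeR) for Hbb-bh1, -1.35 (SE 0.20, adjusted p = 0.00544) for Hba-x and -0.93 (SE 0.13, adjusted p = 0.00483) for Hbb-y.

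Without control replicate 3, the 3 values were -1.13, -1.01 and -0.77, and all 6 genes were still called. Over the alternatives tried, the adjusted p ran from 6.78e-05 to 0.0463 for Hbb-bh1, from 1.54e-04 to 0.0225 for Hba-x and from 2.76e-11 to 0.0213 for Hbb-y.

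Of the adult-type genes, Hba-a1 was at 301, 278 and 349 CPM in the controls and at 226, 163 and 165 CPM in the mutants. Hbb-b1 was at 277, 238 and 294 CPM in the controls and at 197, 136 and 98.0 CPM in the mutants. Hbb-b2 was at 123, 112 and 140 CPM in the controls and at 82.3, 61.5 and 42.4 CPM in the mutants. In each of the 3 genes the genotypes did not overlap, and mutant replicate 1, a library with liver markers at 49.7 CPM, was the highest of the mutants.

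The log2 ratios were -0.73 (SE 0.13, adjusted p = 0.0108 by edgeR) for Hba-a1, -0.89 (SE 0.19, adjusted p = 0.0249) for Hbb-b1 and -0.99 (SE 0.18, adjusted p = 0.0134) for Hbb-b2. Without mutant replicate 1 they were -0.91, -1.20 and -1.25. Hbb-b1 was no longer called without control replicate 1 (adjusted p = 0.0920 by edgeR) or mutant replicate 2 (adjusted p = 0.0760), with a range of 0.00315 to 0.171 over its alternatives. Hbb-b2 was no longer called without control replicate 1 (adjusted p = 0.0523, with a range of 0.00107 to 0.0901). Neither Hbb-b1 nor Hbb-b2 was called when all 12 libraries were put in 1 fit.

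Hba-a2 was the exception, at 6.60, 6.09 and 139 CPM in the controls and at 81.9, 48.4 and 5.04 CPM in the mutants. Low and high libraries occurred in both genotypes, and the log2 ratio was -0.15 (SE 1.01, adjusted p = 0.947 by edgeR). Counted as 1 gene with Hba-a1, it gave -0.63 (SE 0.22, adjusted p = 0.129), which did not pass the test, so the call of the adult alpha chain rests on Hba-a1 apart from its copy. Hbb-b1 and Hbb-b2 counted as 1 gene gave -0.92 (SE 0.19, adjusted p = 0.0202), which passed.

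**Figure D2:**
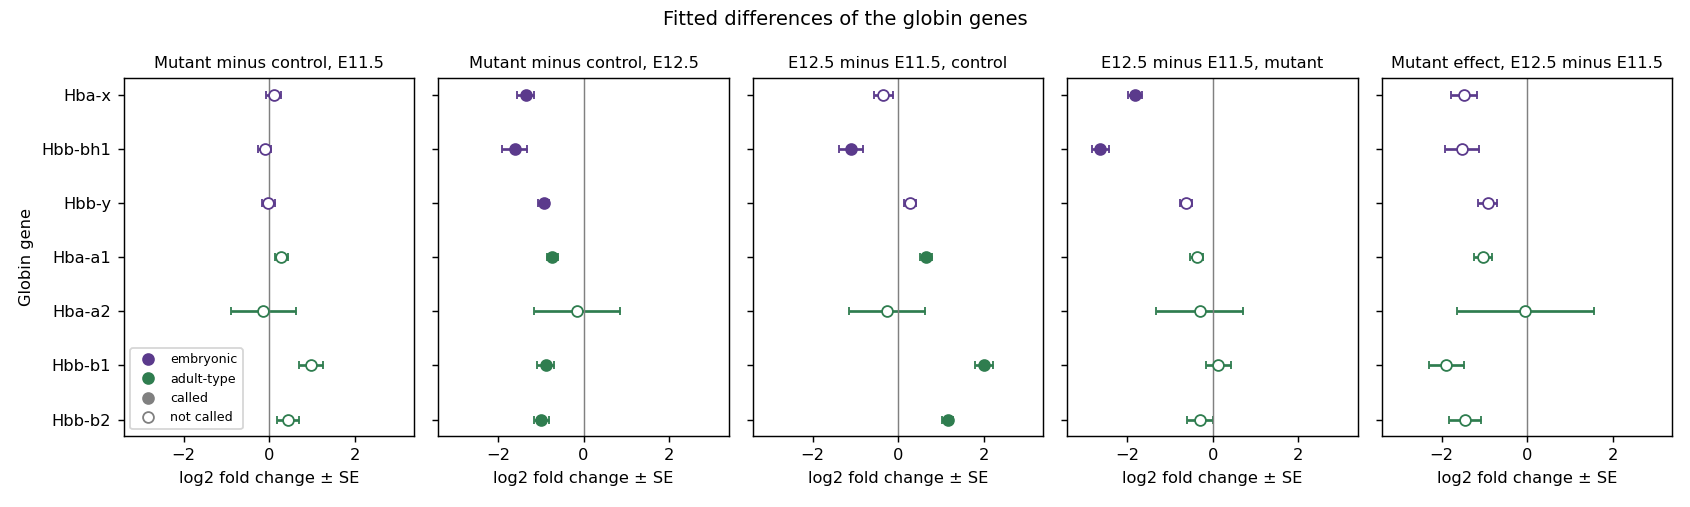
Fitted log2 ratio of each globin gene with its SE (horizontal axis) in the 4 comparisons of groups and in the difference of the mutant effect between stages, with filled points for genes past the threshold. Filled points are 6 at E12.5 between genotypes, 4 between stages in controls, 2 between stages in mutants and 0 elsewhere.

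The third comparison asked how the globin genes changed from E11.5 to E12.5, and it used the libraries already given, so its values are not independent of the genotype comparisons. In controls, 1 member was called lower and 3 higher, where 2.49% and 2.82% of the 12250 genes tested were called lower and higher. Hbb-b1 rose from 66.7 ± 21.9 to 269 ± 28.8 CPM (4.04-fold, log2 ratio 2.01, SE 0.22, adjusted p = 0.00235 by edgeR). Hbb-b2 rose from 55.6 ± 8.85 to 125 ± 14.0 CPM (2.24-fold, log2 ratio 1.16, SE 0.13, adjusted p = 0.00334). The stages did not overlap for these 2 genes, and E12.5 lay wholly above E11.5 in 18.3% of all genes tested. Both genes were called under each alternative run. As 1 gene they gave a log2 ratio of 1.69 (SE 0.14, adjusted p = 5.71e-04).

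Hba-a1 rose less, from 195 ± 34.1 to 310 ± 36.2 CPM (1.59-fold, log2 ratio 0.66, SE 0.14, adjusted p = 0.0254 by edgeR). Hbb-bh1 fell from 952 ± 27.3 to 442 ± 227 CPM (2.15-fold, log2 ratio -1.10, SE 0.28, adjusted p = 0.0357). As 1 gene with Hba-a2, Hba-a1 gave 0.49 (SE 0.20, adjusted p = 0.124) and was not called. Hba-a1 alone lost its call without any 1 of the 5 libraries E11.5 control replicates 1 and 2 and E12.5 control replicates 1, 2 and 3, where it was at 0.53 to 0.74 on the log2 scale. Hbb-bh1 lost its call without E11.5 control replicate 1 or 3 or E12.5 control replicate 1 or 2 (adjusted p = 0.0796 to 0.158, with a range of 0.00142 to 0.533 over its alternatives), and was at -1.60 (adjusted p = 0.00142) without E12.5 control replicate 3. DESeq2 did not call Hbb-bh1 in this comparison.

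Hba-x, Hbb-y and Hba-a2 were not called in controls, with log2 ratios of -0.35 (SE 0.22), 0.28 (SE 0.15) and -0.25 (SE 0.89). Without E12.5 control replicate 3, Hba-x was called at -0.69 (adjusted p = 0.0353 by edgeR, with a range of 0.0353 to 0.795 over the alternatives) and Hba-a2 at -3.26 (adjusted p = 1.88e-04, with a range of 1.88e-04 to 0.945). All 3 E11.5 controls were male and 1 of the 3 E12.5 controls was. A fit with sex as a term therefore sets 1 male E12.5 control against the E11.5 controls, and cannot check the calls of 3 libraries against 3. In that fit the log2 ratio was 2.14 for Hbb-b1, 1.33 for Hbb-b2, 0.84 for Hba-a1 and -0.45 for Hbb-bh1.

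In mutants, 2 members were called lower, where 0.237% of the 12237 genes tested were, and no member was called higher. Hbb-bh1 fell from 889 ± 163 to 143 ± 30.9 CPM (6.19-fold, log2 ratio -2.63, SE 0.20, adjusted p = 0.00567 by edgeR) and had the smallest p of all genes tested. Hba-x fell from 1453 ± 215 to 412 ± 48.6 CPM (3.51-fold, log2 ratio -1.81, SE 0.16, adjusted p = 0.00608). The 3 libraries of each stage did not overlap for these 2 genes, and E12.5 lay wholly below E11.5 in 8.46% of all genes tested. Hba-x was not called without E12.5 mutant replicate 2 (adjusted p = 0.0688, with a range of 2.34e-28 to 0.0750), and neither gene without the 2 mutant libraries over 20 CPM of liver markers, at -2.67 and -1.88 on the log2 scale with an adjusted p of 0.0750 each.

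Hbb-y was at 2236 ± 199 CPM in E11.5 mutants and at 1435 ± 214 CPM in E12.5 mutants, without overlap (log2 ratio -0.63, SE 0.14, adjusted p = 0.146 by edgeR). It was called without E11.5 mutant replicate 3, at -0.70 (adjusted p = 0.0301, with a range of 0.00142 to 0.568). The adult-type genes overlapped between stages in mutants. Their log2 ratios were -0.37 (SE 0.15) for Hba-a1, -0.30 (SE 1.02) for Hba-a2, 0.13 (SE 0.29) for Hbb-b1 and -0.29 (SE 0.31) for Hbb-b2, and none passed the test. Counted as 1 gene, the adult alpha copies gave -0.35 (SE 0.22) and the adult beta copies -0.01 (SE 0.28).

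The change of the mutant effect between the stages was tested in 1 model of all 12 libraries. Taken as the log2 ratio of mutant to control at E12.5 less the same ratio at E11.5, it was -1.89 (SE 0.41) for Hbb-b1, -1.53 (SE 0.40) for Hbb-bh1, -1.47 (SE 0.30) for Hba-x, -1.46 (SE 0.37) for Hbb-b2, -1.04 (SE 0.21) for Hba-a1, -0.92 (SE 0.22) for Hbb-y and -0.04 (SE 1.60) for Hba-a2. Counted as 1 gene, the adult beta copies gave -1.70 (SE 0.34, adjusted p = 0.235 by edgeR) and the adult alpha copies -0.85 (SE 0.34, adjusted p = 0.954). By edgeR's quasi-likelihood test the adjusted p ran from 0.256 to 0.997, and no member was called. Of the 12270 genes tested, 0% were called (552 genes had an unadjusted p under 0.05). DESeq2 called 6 of the 7 members, all but Hba-a2, and 0.380% of the 11315 genes to which it gave an adjusted p. The 2 tools thus differed on this comparison.

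The balance of embryonic against adult-type RNA was described without a test, as the share of counts in each library. Globin counts were 0.422% to 0.552% of all counts in the 6 E11.5 libraries, 0.407% to 0.655% in E12.5 controls and 0.214% to 0.293% in E12.5 mutants. At E11.5 the embryonic genes made up 92.4% ± 0.473 (SD, n = 3) of globin counts in controls and 90.2% ± 1.15 in mutants. At E12.5 the same share was 84.8% ± 0.773 in controls and 82.3% ± 2.98 in mutants. All 6 libraries of E12.5 lay below all 6 of E11.5, and the genotypes overlapped at E12.5. At E11.5 the 3 mutants, at 88.9%, 90.6% and 91.0%, lay below the lowest control, at 91.9%.

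Among the alpha-type genes at E12.5, Hba-x made up 74.5%, 73.2% and 75.4% of counts in the control libraries and 60.3%, 64.6% and 69.2% in the mutant libraries, so the genotypes did not overlap. With Hba-a2 left out, whose counts were split unevenly between libraries, the share of Hba-x was 74.9%, 73.7% and 81.1% in these controls against 67.4%, 70.3% and 69.8% in these mutants, also without overlap. At E11.5, the share among all alpha-type counts was 83.0% to 84.6% in controls and 81.9% to 84.4% in mutants. Among the beta-type genes, Hbb-bh1 and Hbb-y together made up 88.1%, 88.2% and 90.3% of counts in E12.5 controls, overlapping the mutants at 86.8%, 88.0% and 91.2%. The lowest mutant share of both kinds at E12.5 was that of replicate 1, the library with 49.7 CPM of liver markers, and the part of liver RNA in it was not tested.

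Within the embryonic beta-type genes, the share of Hbb-bh1 was 29.8% ± 2.36 in E11.5 controls and 28.3% ± 2.87 in E11.5 mutants. The E12.5 controls had 12.7%, 9.82% and 17.3%, and the E12.5 mutants had 8.06%, 7.59% and 11.8%. Each E12.5 library was below each E11.5 library, and the genotypes overlapped at E12.5. The ratio of Hbb-y to Hbb-bh1 counts lay between 2.08 and 2.75 in the E11.5 libraries and between 4.78 and 12.2 in the E12.5 libraries. The alpha-type to beta-type ratio in RPKM was 0.461 to 0.560 at E11.5 and 0.365 to 0.468 at E12.5.

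**Figure D3:**
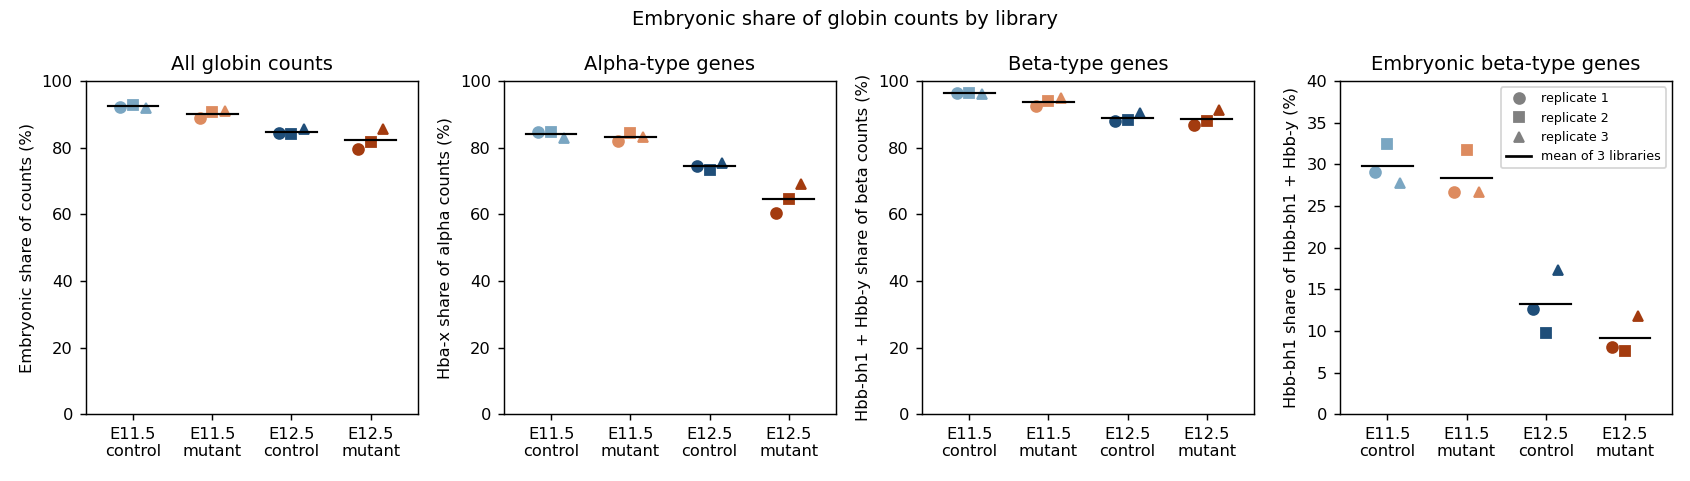
Share of counts by library in percent (vertical axes, from 0) for embryonic genes among all 7 globin genes, for Hba-x among alpha-type genes, for Hbb-bh1 with Hbb-y among beta-type genes, and for Hbb-bh1 among these 2 embryonic beta-type genes, with a line at the mean of 3 libraries. Hba-x has 73.2% to 75.4% of alpha-type counts in E12.5 controls and 60.3% to 69.2% in E12.5 mutants.

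The near-identical copies were split unevenly. Hba-a2 held 22.0% to 28.5% of the adult alpha counts in 8 libraries and 1.29% to 2.96% in the other 4, which were E11.5 mutant replicate 3, E12.5 control replicates 1 and 2 and E12.5 mutant replicate 3. No library lay between these ranges, and the split followed neither stage nor genotype. Hbb-b2 held 36.9%, 59.5% and 42.8% of adult beta counts in E11.5 controls, 31.3%, 46.4% and 31.6% in E11.5 mutants and 29.5% to 32.2% in the 6 E12.5 libraries. The 2 highest shares were those of replicate 2 in both E11.5 groups. With the copies of the coding sequence differing at 1 base, how the counting assigned reads to a copy was not tested.

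**Figure D4:**
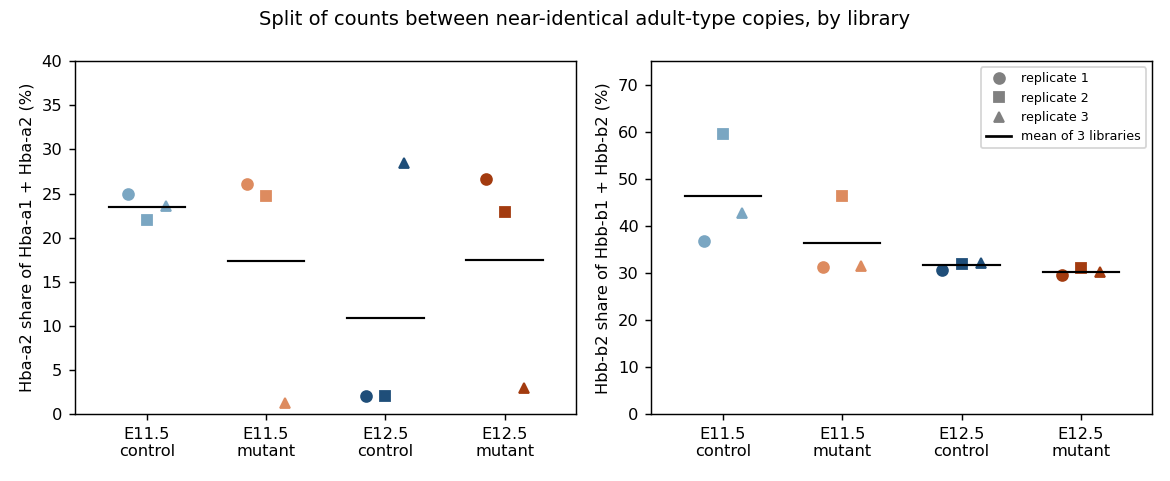
Share of Hba-a2 among the counts of Hba-a1 and Hba-a2 (left) and of Hbb-b2 among those of Hbb-b1 and Hbb-b2 (right) in percent by library, for the 4 groups, with a line at the mean of 3 libraries. Hba-a2 lies at 1.29% to 2.96% in 4 libraries and at 22.0% to 28.5% in the other 8, while Hbb-b2 lies at 29.5% to 32.2% in every E12.5 library.

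Other genes of the red cell were described from lists chosen with earlier results of these data known. Of 13 tested genes of the red cell membrane, 6 were called lower in E12.5 mutants, with a list median log2 ratio of -0.80 where the median of all genes was 0.00. Kel, a blood group glycoprotein, fell from 40.1 to 12.3 CPM (log2 ratio -1.69, SE 0.23, adjusted p = 0.00369 by edgeR), Epb42, protein 4.2 of the membrane skeleton, from 19.4 to 6.07 CPM (-1.66, SE 0.24, adjusted p = 0.00466) and Slc4a1, the anion exchanger of the membrane, from 199 to 63.1 CPM (-1.64, SE 0.20, adjusted p = 0.00189). For Hbb-bh1, the value in the same comparison was -1.61. The 4 erythroid markers in the counts summed to 156 to 296 CPM in E12.5 controls and to 68.5 to 92.1 CPM in E12.5 mutants, without overlap, and 1 of the 4, Slc4a1, was called.

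Among 6 tested genes of globin partners and the red cell cytoplasm, 2 were called lower. They were Bpgm, whose product makes bisphosphoglycerate, from 63.4 to 31.8 CPM (log2 ratio -0.98, SE 0.14) and Car2, a carbonic anhydrase gene, from 82.5 to 44.8 CPM (-0.87, SE 0.15). That list also held Fech, which is in the heme synthesis list too, and Hemgn, which encodes a nuclear protein. Of 10 genes of heme synthesis, 1 was called lower, the mitochondrial iron importer Slc25a37, from 80.2 to 50.9 CPM (-0.64, SE 0.15, adjusted p = 0.0337 by edgeR), and the list median was -0.19. With a library left out, 5 to 6 membrane genes were called, and Bpgm and Car2 in every case, but Slc25a37 was called without control replicate 2 and lost without any other of the 6 libraries. In 1 fit of all 12 libraries, 5 membrane genes and Bpgm were called, but Car2 and Slc25a37 were not. Slc25a37 was not called by limma either. With the filter at a mean RPKM of 5, 2 of 5 membrane genes were called. None of 7 erythroid transcription factors, 6 factors of globin switching or 4 genes of iron uptake was called, with medians of -0.34, -0.28 and -0.16. The smallest p among them was 0.0226 after adjustment, for the switching factor Sox6, which missed the fold threshold (-0.46, SE 0.10). Macrophage markers moved with genotype too, with 3 of 4 tested called lower at E12.5 and sums of 77.6 to 96.3 CPM in controls against 40.4 to 53.3 CPM in mutants. Without control replicate 3, mutant replicate 2 or mutant replicate 3, 1 of the 4 was called, and 2 without control replicate 1 or 2. At E11.5 the sums were 59.1 to 95.5 CPM in controls and 26.4 to 33.4 CPM in mutants, with no marker called in the main fit. The list median was -1.43 there and -0.89 at E12.5. Of the 4 markers at E11.5, 3 were called lower by DESeq2 and in 1 fit of all libraries, 2 with the replicate block and 1 with the sex term. With no filter 2 of 5 were called, and with a library left out no marker was. The part of macrophages in the globin values was not tested.

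**Figure D5:**
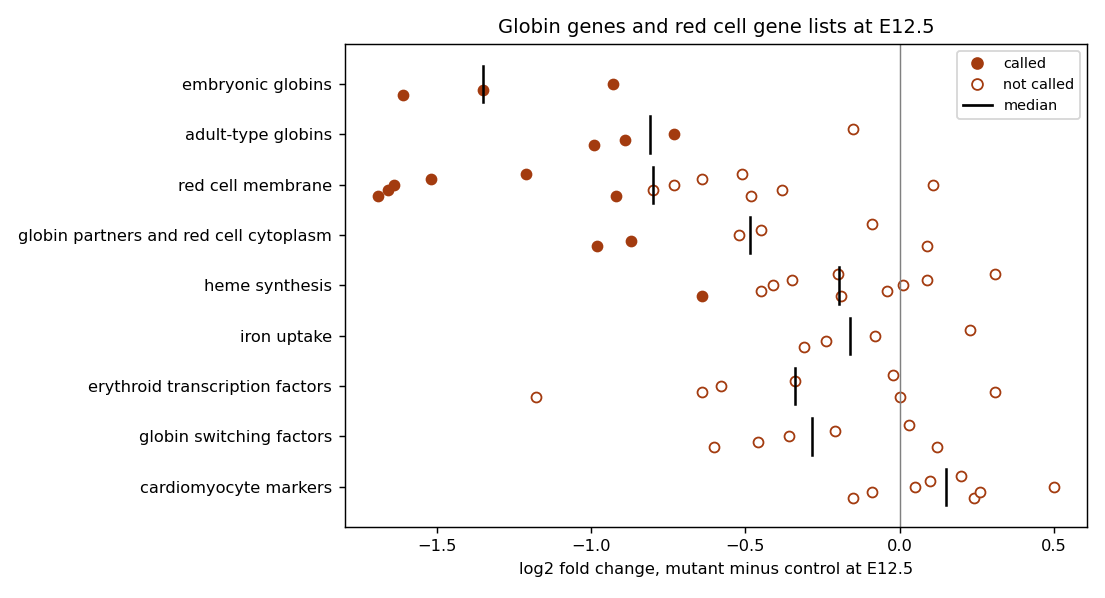
Log2 fold change of single genes between mutant and control hearts at E12.5 (horizontal axis) for the globin genes, the red cell gene lists and the cardiomyocyte markers (rows), with filled points for called genes and a line at each median. Called genes are 6 of 7 globin genes, 6 of 13 membrane genes, 2 of 6 cytoplasm genes and 1 of 10 heme synthesis genes, and 0 of 8 cardiomyocyte markers.

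At E11.5, none of the red cell list genes was called between the genotypes, with list medians from 0.07 for heme synthesis to 0.51 for the red cell membrane. From E11.5 to E12.5 in controls, 3 of 13 membrane genes were called lower (Rhd at -1.14 and Epor at -1.03 on the log2 scale among them) while the list median was 0.05, and Bpgm was called higher (0.73, SE 0.13, adjusted p = 0.0176 by edgeR). Hemgn, a nuclear protein of immature red cells, fell by 3.21 on the log2 scale (SE 0.23, adjusted p = 6.16e-04), and the erythroid factor Klf1 fell by 1.41 (SE 0.26, adjusted p = 0.0179). Hemgn was called under each alternative run, among them the sex term, which sets 1 male E12.5 control against the E11.5 controls. With the sex term, or without E12.5 control replicate 1, 0 membrane genes were called and Bpgm and Klf1 lost their calls. Without E11.5 control replicate 1 or 3 or E12.5 control replicate 2, 1 membrane gene was called, and Klf1 was lost without the first and the last of these and with the filter at a mean RPKM of 5.

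In mutants 8 of 13 membrane genes were called lower, with a list median of -1.90, beside Hemgn at -4.08 (SE 0.33) and Klf1 at -2.61 (SE 0.28). The count changed with single libraries. No membrane gene was called without E12.5 mutant replicate 2, without E12.5 mutant replicate 3, or without the 2 mutant libraries over 20 CPM of liver markers, an alternative chosen after seeing the data. The count was 1 without E12.5 mutant replicate 1, 3 without E11.5 mutant replicate 1, 4 without E11.5 mutant replicate 2, 5 with the replicate block, and 12 without E11.5 mutant replicate 3 and by DESeq2. Hemgn and Klf1 lost their calls without E12.5 mutant replicate 2 and without the liver marker libraries, and Klf1 also without E12.5 mutant replicate 3 and with the filter at a mean RPKM of 5.

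The genes most like the embryonic globins over the 12 libraries were sought among 10695 genes by Pearson's r of log2(CPM + 1) with the mean standardised profile of the class, as a description. They included Slc4a1 (r = 0.97), Epb42 (r = 0.95), Car2 (r = 0.94) and Ermap (r = 0.93), a protein of the red cell membrane. Those most like the adult-type globins were Nudt4 and Fam46c (r = 0.87 each), Smek1 (r = 0.86), H2-T24 (r = 0.85) and Zc3hav1 (r = 0.84). Among the members, r was 0.96 between Hba-x and Hbb-bh1, 0.81 between Hbb-y and Hba-a1, -0.36 between Hbb-bh1 and Hbb-b1, and 0.01 between Hba-a1 and Hba-a2. All genes of a library share its depth, its scaling and its mix of cells, and the 12 libraries fall into 4 groups, so these values describe shared levels and carry no test.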

How the data were processed

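Hearts were measured in 12 libraries, with groups and replicate numbers from the labels. The 7 members, the marker and red cell lists and the comparisons were chosen with earlier results of these data known. The submitters' processing notes name Bowtie2, DESeq and mm10 without roles, the study's methods name BOWTIE and DEseq for the RNA libraries, and the counting program, its annotation and its use of strand are not given in the sources used here. The deposited values, titled RPKM by the authors, are of the score kind, each a whole count times a gene length and a library factor. The average counts per group that the authors deposited are expected counts in kind only, each averaged over the libraries of its group. That name does not say that reads were shared in fractions between copies. Factors were fitted on 11829 genes so that recovered counts gave those averages, and counts of 17827 genes lay within 1.34e-05 of a whole number. The authors' fold changes, z scores and p-values were not used. Hearts were marked male where the summed Y-linked signal per 1000000 counts was over 10. Gene length was not divided out of that signal, so it is not in CPM.

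Counts were scaled by TMM over all genes, and genes whose mean RPKM over the libraries compared reached 0.5 were tested with edgeR 4.0.16 (quasi-likelihood, R 4.3.3), with Benjamini-Hochberg adjustment over all genes tested. A call needed an adjusted p no higher than 0.05 together with a change of 1.5-fold or more, and the adjusted p alone for the difference between stages. All p-values measure the spread between these libraries. Standard errors were derived from edgeR's F statistic. Levels are TMM-scaled CPM, or RPKM from the recovered gene lengths.

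The genes named are the members, other genes of their clusters, the 5 genes most like each class by r (mean CPM of at least 5) and, per list, at most 3 called genes with the largest change, or the one with the smallest p. Some genes that this rule takes are not reported here. Alternatives were no filter, a filter at a mean RPKM of 5, median-ratio scaling, total counts, library sizes without globins, DESeq2 1.42.0, limma 3.58.1 on log2(RPKM + 0.5), no fold threshold, 1 fit of all libraries, a replicate block, a sex term and each library left out. Copies summed as 1 gene, and libraries over 20 CPM of liver markers left out, were chosen after seeing the data. Coding sequences came from GENCODE vM21 and promoters from RefSeq (GRCm38.p6), where 6 of 7 members matched. Scripts were tested on simulated data.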

Additional observations from a re-analysis of the deposited data

Results flagged for a closer look

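For 2 genes every mutant library lay above every control library at E11.5 and below every control library at E12.5. Taken singly, the first was so for 7.73% of genes tested and the second for 14.2%. The share of genes with both was not counted. For Hbb-b1 the log2 ratio of mutant to control at E12.5, less the same ratio at E11.5, was -1.89 (SE 0.41, adjusted p = 0.278 by edgeR, adjusted p = 0.00291 by DESeq2, with a range of 0.00291 to 0.746 over the alternatives). For Hba-a1 it was -1.04 (SE 0.21, adjusted p = 0.256 by edgeR, adjusted p = 0.00626 by DESeq2, with a range of 0.00626 to 0.740). The edgeR test of the difference did not pass for either gene. Hba-a1 summed with Hba-a2 overlapped between genotypes at E11.5 (201 to 291 CPM in controls, 247 to 338 CPM in mutants). That sum also overlapped at E12.5 (285 to 489 CPM and 170 to 308 CPM), and its difference was -0.85 (SE 0.34, adjusted p = 0.954 by edgeR). Hbb-b1 summed with Hbb-b2 overlapped at neither stage, and its difference was -1.70 (SE 0.34, adjusted p = 0.235 by edgeR).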

How the results depend on the processing

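All members but Hba-a2 had over 500 counts in every library, Hba-a2 fell to 37, and each group had 3 libraries. The 6 members called lower in E12.5 mutants were 4 with all 12 libraries in 1 fit and 4 to 6 with a library left out. The members lost in the fit of all 12 libraries were Hbb-b1 and Hbb-b2. At E11.5, DESeq2 called 1 member (Hbb-b1) and the sex term 1 (Hba-a2, -4.24), and the range with a library left out was 0 to 0. The 4 members called between stages in controls were 3 by DESeq2 and 2 with the sex term. They were 2 without the libraries over 20 CPM of liver markers, 2 with copies summed and 2 to 5 with a library left out. The 2 in mutants were 3 by DESeq2, 0 without the liver marker libraries and 1 to 3 with a library left out. The difference between stages had 0 called members, but 6 by DESeq2. The cause was not tested, except that fits without libraries hold fewer samples and summed copies make 5 genes of 7.

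The replicate numbers carry no stated pairing, and same-numbered libraries had deviations correlated at r from -0.17 to 0.51, and in no comparison did every library correlate best with its own number. With the replicate block the counts of called members stayed at 0, 6, 4, 2 and 0, and Hba-a2 at E12.5 turned to 1.21. Its value there was 0.61 by limma and 0.91 with the sex term, between stages in controls 1.21 with the sex term, and for the difference between stages 1.67 by limma. With the sex term, Hba-x was -0.15 and Hbb-b2 -0.28 at E11.5, and Hba-x 0.16 between stages in controls. With a library left out, signs turned at E11.5 for Hba-x (-0.01 to 0.23), Hbb-bh1 (-0.24 to 0.02), Hbb-y (-0.12 to 0.07) and Hba-a2 (-0.64 to 0.42). They turned for Hba-a2 at E12.5 (-0.90 to 2.85), between stages in controls (-3.26 to 0.27) and in mutants (-1.05 to 0.23) and for the difference between stages (-0.80 to 2.95), and for Hbb-b1 between stages in mutants (-0.17 to 0.43).

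Over all genes the 14 calls at E11.5 became 73 with no filter, 6 with the filter at 5 RPKM, 248 by DESeq2, 27 by limma, 96 with the block, 39 with the sex term, 229 in 1 fit of all libraries and 0 without the liver marker libraries. At E12.5 the 371 calls became 161 with the filter at 5 RPKM, 628 with no fold threshold, 127 in 1 fit and 221 without the liver marker library. Between stages in controls, 650 became 395 with that filter, 19 with the sex term, 1390 with no fold threshold, 345 in 1 fit and 266 without the liver marker library, and total counts gave 426 higher of 651 calls against 345 of 650. In mutants, 64 became 119 with no filter, 27 with the filter at 5 RPKM, 226 by DESeq2, 26 with the block, 124 in 1 fit and 0 without the liver marker libraries. With a library left out the counts ran from 0 to 15, 186 to 383, 45 to 1407 and 1 to 123, and from 0 to 10 for the difference between stages, where DESeq2 gave 43.

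The embryonic share was 84.1%, 83.1%, 74.4% and 64.7% among alpha-type and 96.3%, 93.8%, 88.9% and 88.7% among beta-type counts, in the order E11.5 control and mutant, E12.5 control and mutant. With a library left out, the share of all globin counts ranged from 92.1% to 92.6%, 89.8% to 90.8%, 84.4% to 85.1% and 80.7% to 83.7% in the same order.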

Other observations

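Myoglobin (Mb), the oxygen store of muscle and a member of the globin superfamily outside both clusters, was lower in E12.5 mutants, at 107 against 154 CPM in controls (log2 ratio -0.51, SE 0.11, adjusted p = 0.0239 by edgeR), without overlap but under the fold threshold. At E11.5 the log2 ratio of Mb was -0.62 (SE 0.27, adjusted p = 0.469). Cytoglobin (Cygb) was at 1.78 against 2.62 CPM at E12.5 (-0.55, SE 0.29, adjusted p = 0.313).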
